A study of Homo sapiens with 6 samples.

Results

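The 9 genes described here encode secreted factors that act on blood or lymph vessels, and their levels were followed through the knockdown of UBC9 in T24 cells. They are the stanniocalcins STC1 and STC2, the endothelial proteoglycan ESM1, the angiopoietin-like protein ANGPTL4, the vascular endothelial growth factors VEGFA, VEGFB and VEGFC, the placental growth factor PGF, and the angiopoietin ANGPT2. These 9 members were taken by gene symbol from 58174 listed genes, and 8 of them were among the 12428 genes with enough expression to be tested. ANGPT2 was below the expression filter. The members were proposed from this same comparison of shRNA-UBC9 with shRNA-NC, so their levels and fold changes are a description and are given without a test.

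T24 is an established line of human bladder cancer cells. The shRNA-NC group (n = 3) carried a scrambled control hairpin and the shRNA-UBC9 group (n = 3) carried a hairpin against UBC9, the only conjugating enzyme for the small modifier SUMO. Per the study's methods, both groups were infected with lentivirus made from the pLKO.1 vector and selected with puromycin, and 1 hairpin targeted UBC9. PolyA RNA was sequenced, and the values are RPKM, reads scaled to gene length and to mapped reads. The labels do not say that the 3 samples of a group came from separate cultures, so p-values measure only the spread between these samples, which may be technical.

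Tumour cells reach the vasculature through such factors. VEGFA is the chief signal for sprouting of blood vessels and acts through the receptor KDR, VEGFC mainly drives lymphatic vessels through FLT4, and VEGFB and PGF bind FLT1. ANGPT2 acts on the endothelial receptor TEK. ESM1 (endocan), ANGPTL4 and the stanniocalcins lie outside the VEGF family. VEGFA, ANGPTL4 and NDRG1 are known targets of the hypoxia-inducible factors, ANGPTL4 is also a target of the PPAR receptors of fatty acids, and ANGPTL4 is known as an inhibitor of lipoprotein lipase.

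Core promoters are shown because the pair of members with a log2 fold change above 4 and a sequence in the promoter table shared letters that the other members with a sequence lacked. Promoter sequence was found for 6 of the 9 members in RefSeq (GRCh38.p14): STC2, ESM1, ANGPTL4, VEGFB, VEGFC and PGF. STC1, VEGFA and ANGPT2 had no entry. Each stretch below runs from base -36 to base -7 before the annotated start site, 5′ to 3′ on the gene's strand. Capitals mark TATAAA, the TATA box, and ACGTG, the core of the hypoxia response element, searched on both strands.
ESM1 (chr5:54985600-54985629, minus strand): agtgTATAAAactcataaACGTGtaggcag
ANGPTL4 (chr19:8364119-8364148, plus strand): cccaactTATAAAaaccgtcctcgggcgcg
VEGFC (chr4:176792929-176792958, minus strand): tctctcacataagcgcaggcagagggcgcg
VEGFB (chr11:64234548-64234577, plus strand): tgcccgccagcccgggcccagccccccgcc

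ANGPTL4 also held the hypoxia element core, on the opposite strand and farther upstream, in the stretch from base -249 to base -220 at chr19:8363906-8363935.
ANGPTL4: gggggaaagaagagtCACGTctcccacggt
Over the whole window of 250 bases before to 50 after the start, TATAAA was in 2 of the 6 members, ESM1 and ANGPTL4, and in 11.5% of 35116 promoters. ACGTG was in the same pair and in 21.4% of promoters. Neither the AP-1 letters TGANTCA nor the kappaB letters (GGG, any 3 bases, TTCC) were in any of the 6, against 7.71% and 6.52% of promoters. The members are counted as genes, with 7 promoter entries for the 6 genes, while the background counts promoter entries. The stretches of STC2 and PGF hold neither TATAAA nor ACGTG and are not printed. The promoters were chosen for display after the fold changes and matches were seen, so nothing is read from these counts. A match is a description of these letters only. The ESM1 stretch also overlaps an exon of a longer transcript in GENCODE release 44.

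The depth of the samples relative to shRNA-NC replicate 1 ranged from 0.945 to 1.21. Of the urothelial and epithelial markers, KRT7, KRT8 and KRT18 were abundant, while UPK1B, UPK2, UPK3A and CDH1 stayed at or below 0.125 RPKM. The list summed to between 943 and 1116 RPKM in shRNA-NC and between 430.1 and 568 RPKM in shRNA-UBC9. KRT7 fell by 1.11 on the log2 scale (adjusted p = 0.000578, limma). KRT8, KRT18, KRT19 and GATA3 lay below the controls in every knockdown sample, with log2 differences between -0.99 and -0.79, under the fold limit. EPCAM went the other way with overlap, at 0.412, 0.986 and 0.575 RPKM in shRNA-NC and 2.51, 1.27 and 0.732 RPKM in shRNA-UBC9. Its log2 difference was 0.996 (adjusted p = 0.0984, limma). Of the endothelial markers, 7 of 10 were below 1 RPKM in all 6 samples, PECAM1, VWF, KDR, TEK, ERG and CLDN5 were below 0.1 RPKM, and the list summed to between 3.91 and 4.61 RPKM in shRNA-NC and between 2.01 and 4.33 RPKM in shRNA-UBC9. Of its expressed genes CDH5 fell from 2.87 ± 0.287 to 0.619 ± 0.390 RPKM (SD, n = 3 each; log2 fold change -2.20, adjusted p = 0.00288 from limma). ROBO4 had 0.525 ± 0.266 and 1.05 ± 0.244 RPKM with overlap, and TIE1, not tested, had 0.348 ± 0.139 and 0.966 ± 0.523 RPKM without overlap (SD, n = 3 each). PTPRC was at or below 0.102 RPKM. The summed leukocyte and fibroblast markers were between 3.43 and 5.26 RPKM in shRNA-NC and between 20.9 and 50.2 RPKM in shRNA-UBC9, most of it CD68 (2.65 ± 0.970 and 32.2 ± 15.1 RPKM, SD, n = 3 each). Of the fibroblast markers, PDGFRB was lower in shRNA-UBC9 (0.764 ± 0.230 and 0.202 ± 0.0143 RPKM, SD, n = 3 each). COL1A1 was higher (0.377 ± 0.137 and 0.818 ± 0.221 RPKM, SD, n = 3 each), and neither gene overlapped between the groups. The part of these markers in the results below was not tested, and in bulk samples fewer cells of a type and less RNA per cell cannot be told apart.

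STC1 went from near 0 to one of the more abundant members. STC1 (ENSG00000159167, chromosome 8, 23841929 to 23854806, minus strand, GENCODE release 44, GRCh38) encodes a secreted glycoprotein hormone linked to calcium and phosphate handling. It had 0.0242, 0.0557 and 0.121 RPKM in shRNA-NC replicates 1, 2 and 3, and 130.0, 30.3 and 25.5 RPKM in shRNA-UBC9. The lowest shRNA-UBC9 sample was 210.3 times the highest control, and replicate 1 of shRNA-UBC9 stood above the other two. Steps of the RPKM values show the smallest whole numbers of reads that give them, which were 3, 8 and 17 in shRNA-NC and 19444, 4426 and 2982 in shRNA-UBC9. Relative to depth the reads of shRNA-UBC9 were 948 times those of shRNA-NC, with a 95% exact interval of 655 to 1426 that covers counting error only and not the spread between samples. On the log2(RPKM + 0.1) scale the difference was 8.16 (standard error 0.552), which ranked 2 among the 12428 tested genes. That scale understates the change of a gene this low in the controls, and the difference was 5.48 with a pseudocount of 1 and 9.45 with 0.01. STC1 passed the expression filter only through the knockdown samples, so its rank and call are a description.

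STC2, the paralog of STC1 and a known target of cellular stress signaling, was the most abundant member in the controls. It had 43.0, 41.2 and 41.5 RPKM in shRNA-NC and 79.3, 55.9 and 55.0 RPKM in shRNA-UBC9. The groups did not overlap, but the ratio of the means was only 1.51, against 924 for STC1. The log2 difference was 0.58 (standard error 0.140) and fell to 0.40 without shRNA-UBC9 replicate 1. In the mean of shRNA-NC the level of STC2 was 41.9 ± 0.936 RPKM and that of STC1 was 0.0670 ± 0.0494 RPKM (SD, n = 3 each). In shRNA-UBC9 the same levels were 63.4 ± 13.8 and 61.9 ± 59.0 RPKM (SD, n = 3 each), and STC1 exceeded STC2 in replicate 1 only.

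ESM1 (ENSG00000164283, chromosome 5, 54977867 to 55022671, minus strand) encodes a dermatan sulfate proteoglycan that endothelial cells secrete and that is a marker of endothelial tip cells. It had 10.8, 4.06 and 8.38 RPKM in shRNA-NC and 104.8, 157.3 and 147.7 RPKM in shRNA-UBC9. Here replicate 1 was the lowest of the knockdown samples, and the lowest knockdown sample was 9.73 times the highest control. The mean went from 7.73 ± 3.40 to 136.6 ± 28.0 RPKM (SD, n = 3 each), a ratio of 17.7, and the log2 difference was 4.21 (standard error 0.323). Without shRNA-UBC9 replicate 1 it was 4.39. The values rest on 379 to 866 reads in a control sample and 10183 to 14936 in a knockdown sample.

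ANGPTL4 (ENSG00000167772, chromosome 19, 8363289 to 8374370, plus strand) was expressed in the controls at a low level. It had 0.607, 0.872 and 1.69 RPKM in shRNA-NC and 142.0, 26.9 and 24.3 RPKM in shRNA-UBC9. Its knockdown samples all exceeded the controls, but replicate 1 was 5.55 times the mean of replicates 2 and 3. Against the control mean the ratio was 134 in replicate 1 and 24.2 in replicates 2 and 3. The log2 difference of 5.40 (standard error 0.640) became 4.58 without replicate 1. The smallest read numbers that fit were 45, 75 and 142 in shRNA-NC and 12711, 2354 and 1699 in shRNA-UBC9.

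**Figure D1:**
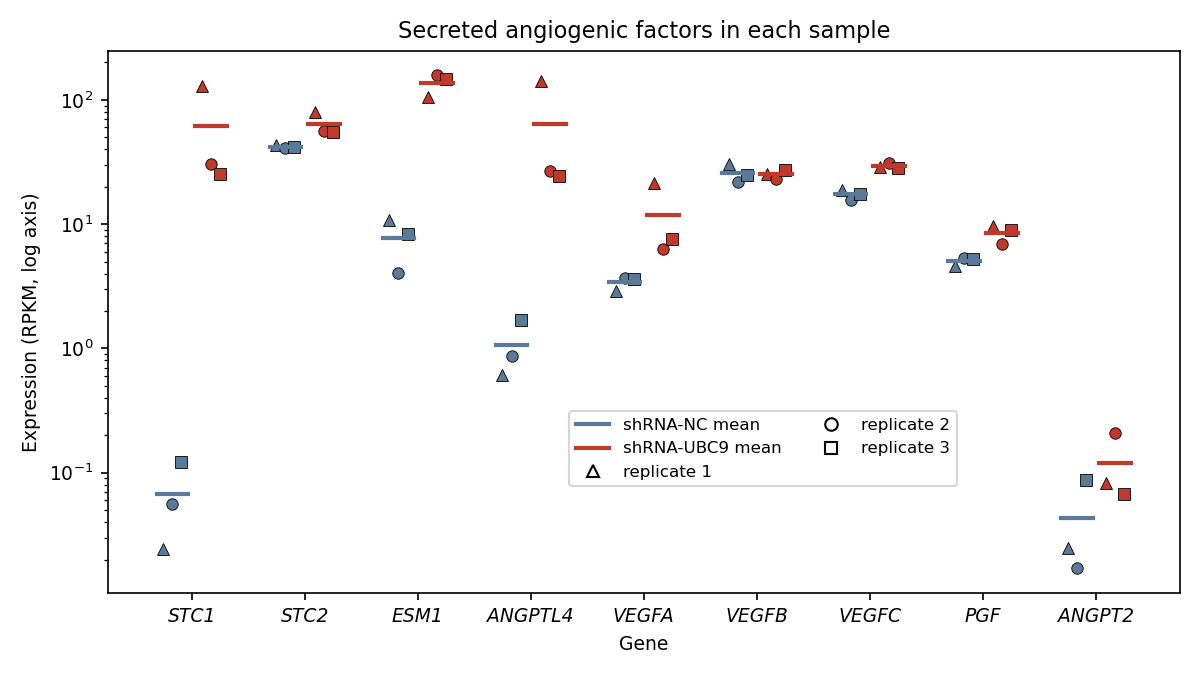
RPKM of the 9 genes in each of the 6 samples on a log axis, with shRNA-NC in blue, shRNA-UBC9 in red, a marker shape for each replicate number and a bar at each group mean. STC1 goes from at most 0.121 RPKM in shRNA-NC to at least 25.5 RPKM in shRNA-UBC9, replicate 1 (triangle) is highest of the knockdown samples for STC1, ANGPTL4 and VEGFA and lowest for ESM1, and the groups overlap for VEGFB and ANGPT2.

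VEGFA (ENSG00000112715, chromosome 6, 43770184 to 43786487, plus strand) was not among the more abundant VEGF ligands in the controls. It had 2.90, 3.71 and 3.62 RPKM in shRNA-NC and 21.3, 6.35 and 7.53 RPKM in shRNA-UBC9. Replicate 1 of shRNA-UBC9 stood 3.07 times above the mean of the other two, and all 3 knockdown samples exceeded the controls. The log2 difference was 1.54 (standard error 0.392) and 1.01 without replicate 1. RPKM values are given per gene, so splice isoforms of VEGFA cannot be told apart.

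The other VEGF family ligands moved less. VEGFC had 18.9, 15.6 and 17.6 RPKM in shRNA-NC and 28.6, 30.9 and 28.4 RPKM in shRNA-UBC9, with no overlap and little spread, and a log2 difference of 0.75 (standard error 0.0957). PGF had 4.60, 5.30 and 5.26 RPKM in shRNA-NC and 9.64, 6.93 and 8.95 RPKM in shRNA-UBC9, again with no overlap, and a log2 difference of 0.73 (standard error 0.134). VEGFB had 30.2, 21.7 and 24.8 RPKM in shRNA-NC and 25.5, 23.2 and 27.1 RPKM in shRNA-UBC9. The groups of VEGFB overlapped fully, with means of 25.6 ± 4.33 and 25.3 ± 1.94 RPKM (SD, n = 3 each) and a log2 difference of -0.01 (standard error 0.129). The sum of VEGFA, VEGFB, VEGFC and PGF was 51.4 ± 5.18 RPKM in shRNA-NC and 74.8 ± 9.12 RPKM in shRNA-UBC9 (SD, n = 3 each). VEGFA made up 5.12% to 8.01% of it in the control samples and 25.1%, 9.42% and 10.5% in shRNA-UBC9 replicates 1, 2 and 3.

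ANGPT2 stayed near the detection limit in both groups. It had 0.0247, 0.0170 and 0.0872 RPKM in shRNA-NC and 0.0819, 0.209 and 0.0680 RPKM in shRNA-UBC9, or 5, 4 and 20 reads against 20, 50 and 13. The groups overlapped, with shRNA-NC replicate 3 above shRNA-UBC9 replicates 1 and 3, and shRNA-UBC9 replicate 2 highest of all. Relative to depth the 83 reads of shRNA-UBC9 were 2.83 times the 29 of shRNA-NC, with a 95% exact interval of 1.83 to 4.48 that covers counting error only and leaves out the spread between samples.

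Of the 8 tested members, 4 passed the threshold of |log2 fold change| > 1 with an adjusted p-value below 0.05, all higher in shRNA-UBC9: STC1, ESM1, ANGPTL4 and VEGFA. Over all tested genes 5.2% were called higher and 2.7% lower. In 7 of the 8, all but VEGFB, the groups were separated with shRNA-UBC9 on top, against 25.7% of tested genes. Since the members were chosen on this comparison, nothing is read from either count. The gene lists below were written by hand with earlier results of these data known. Their counts beside the shares of all tested genes are therefore a description too. Without shRNA-UBC9 replicate 1 the same 4 were called, where 7.5% of tested genes were called, 4.86% higher and 2.64% lower. VEGFA was the member whose call depended on a single library. Its call was lost on the adjusted p-value without shRNA-NC replicate 1, where its log2 difference of 1.43 was still past the fold limit.

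The order of levels changed between the groups. In shRNA-NC the members ranked STC2, VEGFB, VEGFC, ESM1, PGF, VEGFA, ANGPTL4, STC1 and ANGPT2 by mean RPKM, and only the neighbours ESM1 and PGF, and STC1 and ANGPT2, overlapped in their samples. In shRNA-UBC9 ESM1 came to the top, followed by ANGPTL4, STC2 and STC1, and each of these overlapped with the next, ANGPTL4 and STC1 being spread widely between samples. The 9 members summed to 111.0, 92.5 and 103.0 RPKM in the control samples and to 541.2, 338.0 and 324.5 RPKM in the knockdown samples. STC1, ESM1 and ANGPTL4 together made up 10.3%, 5.39% and 9.89% of that sum in shRNA-NC and 69.6%, 63.5% and 60.8% in shRNA-UBC9. Their joint share was thus alike in the 3 knockdown samples, but ESM1 alone held 19.4% of the sum in replicate 1 and 46.5% and 45.5% in replicates 2 and 3.

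**Figure D2:**
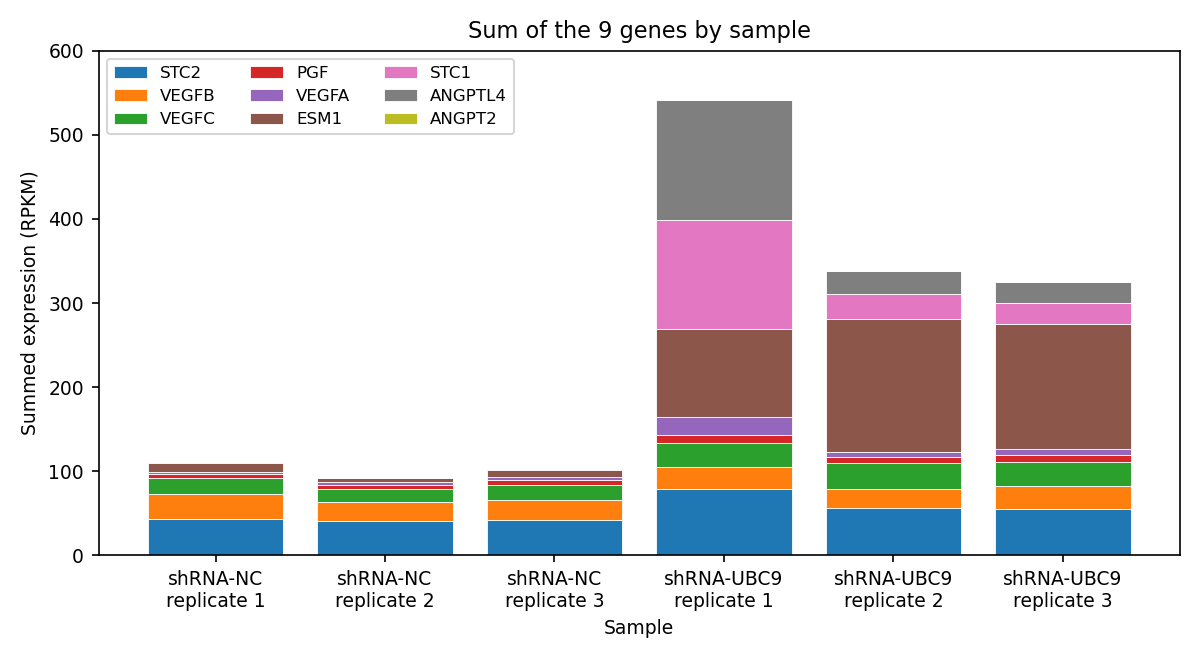
Stacked RPKM of the 9 genes in each sample on a linear axis from 0, one colour for each gene. The sum lies between 92.5 and 111.0 RPKM in shRNA-NC and between 324.5 and 541.2 RPKM in shRNA-UBC9, with ESM1 as the largest block in replicates 2 and 3 and ANGPTL4 and STC1 as the largest in replicate 1.

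The members split by what replicate 1 of shRNA-UBC9 did. On the log2(RPKM + 0.1) scale ANGPTL4 was 2.47 higher in replicate 1 than in the mean of replicates 2 and 3, which ranked 8 among the 12428 tested genes. STC1 was 2.22 higher (rank 15) and VEGFA 1.61 higher (rank 39). STC2 and PGF were 0.52 and 0.29 higher, VEGFB and VEGFC differed by 0.02 and -0.05, and ESM1 was lower by 0.54, with only 3.35% of tested genes further below. Between replicates 2 and 3 the largest difference of any tested member was 0.36, for PGF. Over all tested genes the median excess of replicate 1 was -0.02, and 1.40% of genes had an excess above 1.

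The hypoxia response genes moved with this excess. This list held 30 genes of glycolysis, glucose uptake and other known responses to low oxygen, with all members left out, and 28 of them were tested. Replicate 1 of shRNA-UBC9 was the highest of all 6 samples in 25 of the 28 (89.3%), against 22.0% of all tested genes. Their median excess in replicate 1 was 0.94, and 13 of the 28 had an excess above 1. Replicates 2 and 3 also lay above the highest control in 19 and 18 of the 28, against 25 for replicate 1. The median log2 differences from the shRNA-NC mean were 1.23, 0.35 and 0.23 in shRNA-UBC9 replicates 1, 2 and 3. All 3 knockdown samples lay above the controls in 17 of the 28 and below in 1, against 25.7% and 25.4% of all tested genes. NDRG1, a stress gene induced by hypoxia, had 2.16, 1.81 and 3.50 RPKM in shRNA-NC and 93.2, 11.1 and 9.90 RPKM in shRNA-UBC9, the same shape as ANGPTL4. CA9, a carbonic anhydrase that is a textbook hypoxia marker, was below the filter, with 0, 0 and 3 reads in shRNA-NC and 52, 2 and 1 in shRNA-UBC9. The part of this signature in the levels of STC1, ANGPTL4 and VEGFA was not tested. Without replicate 1 the log2 differences of the 3 genes were 7.42, 4.58 and 1.01.

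**Figure D3:**
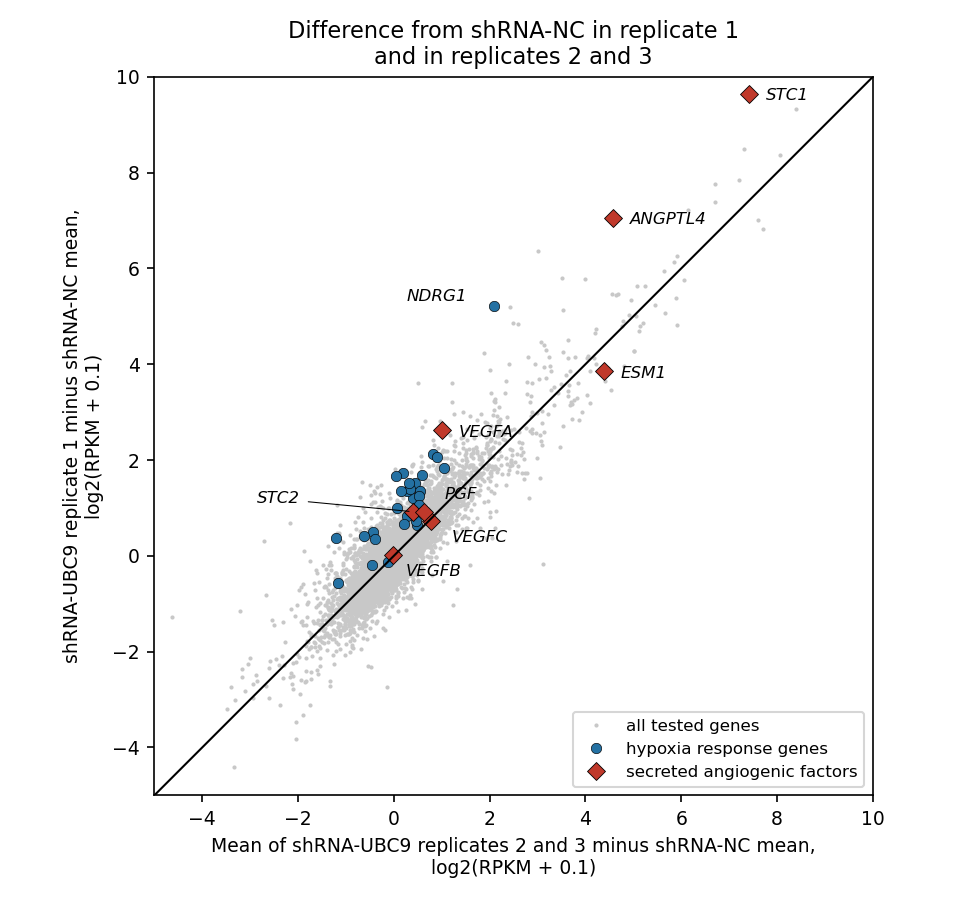
Difference from the shRNA-NC mean on the log2(RPKM + 0.1) scale in shRNA-UBC9 replicate 1 (vertical) against the mean of replicates 2 and 3 (horizontal), for all 12428 tested genes (grey), 28 hypoxia response genes (blue) and 8 secreted angiogenic factors (red); the line marks equal values. STC1, ANGPTL4, VEGFA and NDRG1 lie well above the line, VEGFB and VEGFC near it, and ESM1 below it.

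In the fit over all genes 4 of the 28 hypoxia response genes rose and none fell, against 5.2% and 2.7% of all tested genes, with a median log2 fold change of 0.62, while the median of all tested genes was 0.005. NDRG1 rose by 3.13 (standard error 0.757, adjusted p = 0.0137), the clock and hypoxia repressor BHLHE40 by 1.30 (adjusted p = 0.00222), the mTOR inhibitor DDIT4 by 1.29 (adjusted p = 0.0107) and the glycolytic regulator PFKFB4 by 1.26 (adjusted p = 0.0184, all from limma). PFKFB4 was no longer called without shRNA-NC replicate 1 or 3 (adjusted p = 0.0624 and 0.0559) or shRNA-UBC9 replicate 1 (log2 difference 0.82), and DDIT4 not without shRNA-UBC9 replicate 1 (0.91). Without shRNA-UBC9 replicate 1 the list had 2 genes higher, NDRG1 and BHLHE40, and 2 lower, the collagen crosslinker LOX (-1.22) and ZNF395 (-1.16), with a median of 0.30. Without shRNA-UBC9 replicate 3 it had 7 genes higher, and without shRNA-NC replicate 2 it had 5 higher and 1 lower. The oxygen sensing genes themselves gave no call among 9 tested (background 7.89% called; 0 also at an unadjusted p below 0.05 with the same fold limit). HIF1A had 48.1 ± 5.31 RPKM in shRNA-NC and 51.2 ± 5.01 RPKM in shRNA-UBC9 (SD, n = 3 each). EPAS1, the gene of HIF-2α, had 15.9 ± 2.98 and 23.5 ± 2.93 RPKM (SD, n = 3 each), a log2 difference of 0.57 that passed the adjusted p (0.0175, limma) but not the fold limit. The same held for ARNT, which was lower (-0.43, adjusted p = 0.00799, limma). It also held for EGLN1 (0.40, adjusted p = 0.0379, limma) and EGLN2 (0.38, adjusted p = 0.0115, limma), which were higher. The hydroxylase gene EGLN3 was below the filter and had 10, 7 and 18 reads in shRNA-NC and 155, 49 and 34 in shRNA-UBC9.

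In its pattern over the samples VEGFC was close to ESM1, and STC1 was close to ANGPTL4. Likeness to STC1, ESM1 and ANGPTL4, the members with the largest differences, was measured as the Pearson correlation of log2(RPKM + 0.1) across the 6 samples, which is dominated by the difference between the groups and is given as a description. VEGFC had r = 0.996 with ESM1 and ranked 12 among all tested genes, although its log2 difference was 0.75 against 4.21. The 5 genes closest to ESM1 were C4orf48, SUSD6, BCAP31, TMEM173 (the interferon adaptor STING) and AOX1, all with r = 0.998. STC1 and ANGPTL4 had r = 0.990 with each other, STC1 ranking 32 for ANGPTL4 and ANGPTL4 ranking 93 for STC1. The closest to STC1 were RNF14, NAB2, OSMR (the oncostatin M receptor), SEZ6L2 and TMEM159, and the closest to ANGPTL4 were ENO3, FAM187A, SLC22A15, SERINC3 and DCAF5. VEGFA had r = 0.944 with ANGPTL4 and 0.730 with ESM1.

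The receptors of these ligands were mostly near 0 in T24 cells. KDR, the main VEGFA receptor, had 0 reads in each shRNA-NC sample and 5, 2 and 0 in shRNA-UBC9, and TEK had 0 reads in shRNA-NC and 1, 1 and 0 in shRNA-UBC9. FLT4 had at most 3 reads in any sample. FLT1 had 8, 8 and 6 reads in shRNA-NC and 9, 43 and 24 in shRNA-UBC9, at most 0.0971 RPKM. TIE1 reached 1.51 RPKM in shRNA-UBC9 replicate 3 against 0.194 to 0.465 RPKM in shRNA-NC. The expressed coreceptors were the neuropilins. NRP1 had 10.2, 7.28 and 11.4 RPKM in shRNA-NC and 11.3, 14.3 and 15.2 RPKM in shRNA-UBC9, with overlap (log2 difference 0.51, adjusted p = 0.0549 from limma). NRP2, which also serves VEGFC, had 1.35, 0.864 and 1.47 RPKM in shRNA-NC and 0.421, 0.713 and 0.831 RPKM in shRNA-UBC9. Its groups did not overlap, and its log2 difference of -0.83 (adjusted p = 0.0447, limma) passed the fold limit only without shRNA-NC replicate 2, where it was -1.04. Of the 10 further VEGF, angiopoietin and angiopoietin-like ligands, which include VEGFD, ANGPT1 and ANGPTL8, none passed the filter, so ANGPTL4 was the expressed one among the angiopoietin-like genes examined.

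Other secreted angiogenic factors rose in part. Of 22 listed genes 19 were tested, and 5 rose and none fell, against 5.2% higher and 2.7% lower over all tested genes, with a median log2 fold change of 0.04. The list was chosen with earlier results known, so nothing is read from this count. FGF2, the basic fibroblast growth factor, had 14.4, 14.5 and 15.0 RPKM in shRNA-NC and 83.5, 70.4 and 63.5 RPKM in shRNA-UBC9 (log2 fold change 2.29, standard error 0.109, adjusted p = 1.4e-05 from limma). HBEGF, a ligand of the EGF receptor, had between 5.24 and 8.75 RPKM in shRNA-NC and 41.1, 51.5 and 51.6 RPKM in shRNA-UBC9 (2.79, standard error 0.181, adjusted p = 3.9e-05). Both were separated from the controls in every sample, and replicate 1 did not stand out. The Wnt agonist RSPO3 went from 0.166 ± 0.0493 to 5.03 ± 2.83 RPKM (SD, n = 3 each), and its log2 fold change was 4.15. RSPO3 was below 0.5 RPKM in every control and passed the filter only through the knockdown samples, so its call is a description. The acidic fibroblast growth factor FGF1 rose by 1.48 on the log2 scale (adjusted p = 0.00216, limma), but with a pseudocount of 1 its log2 difference was 0.90 and it was not called. TYMP, a thymidine phosphorylase, had 1.17, 1.37 and 0.810 RPKM in shRNA-NC and 2.71, 4.31 and 2.99 RPKM in shRNA-UBC9 (adjusted p = 0.00171, limma). ADM, a vasodilator peptide induced by hypoxia, had 9.28, 10.5 and 11.1 RPKM in shRNA-NC and 16.9, 6.53 and 5.20 RPKM in shRNA-UBC9, so that replicate 1 lay above and the other two below the controls. In 6 of the 19 every knockdown sample lay above the controls, and in 2, PTN and CCN2, below. Over all tested genes the shares were 25.7% and 25.4%. PTN and CCN2 had log2 differences of -0.77 and -0.62 (adjusted p = 0.0223 and 0.0201, limma), under the fold limit.

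Among 10 tested secreted inhibitors of angiogenesis 2 fell and 1 rose (median log2 fold change 0.09), where 2.7% of all tested genes were called lower and 5.2% higher. THBS1, thrombospondin 1, had 53.8, 64.0 and 55.9 RPKM in shRNA-NC and 7.04, 4.62 and 6.98 RPKM in shRNA-UBC9, and it fell by 3.22 on the log2 scale (standard error 0.164, adjusted p = 1.4e-05 from limma). TIMP3, a metalloproteinase inhibitor that also blocks KDR, had 8.01, 6.29 and 8.99 RPKM in shRNA-NC and 1.54, 0.814 and 0.885 RPKM in shRNA-UBC9, and it fell by 2.77 (standard error 0.229, adjusted p = 0.000119). SEMA3F, a semaphorin that binds NRP2, rose from 8.40 ± 0.367 to 21.3 ± 5.80 RPKM (SD, n = 3 each; log2 fold change 1.29, adjusted p = 0.00165). COL18A1, the parent of endostatin, had 82.5 ± 6.80 and 45.4 ± 11.5 RPKM (SD, n = 3 each) and a log2 difference of -0.89, below the fold limit.

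**Figure D4:**
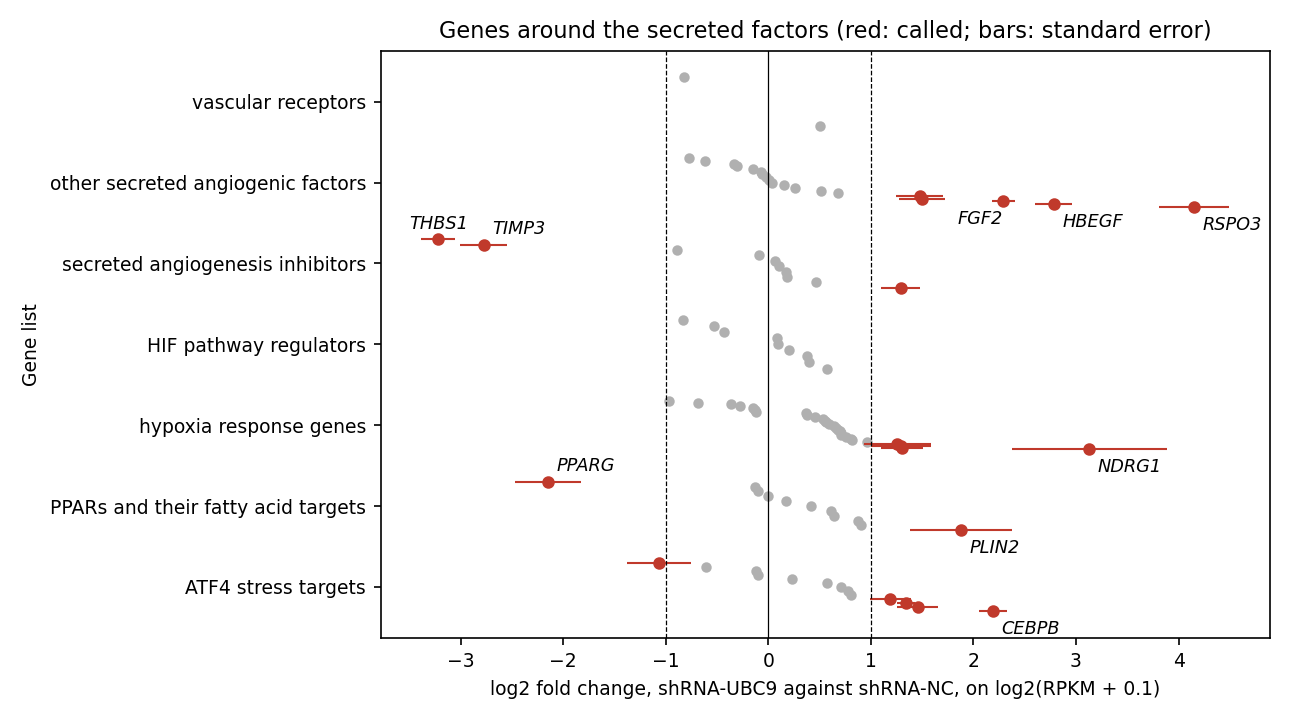
log2 fold change of shRNA-UBC9 against shRNA-NC for the tested genes of 7 lists around the secreted factors; called genes are red with bars for the standard error, others are grey, and dashed lines mark the fold limit of 1 in each direction. THBS1, TIMP3 and PPARG lie below -2, and RSPO3, NDRG1, HBEGF, FGF2 and CEBPB lie above 2.

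PPAR and stress genes were examined because ANGPTL4 is a PPAR target and STC2 and VEGFA are known targets of the stress factor ATF4. PPARG had 14.5, 17.5 and 20.6 RPKM in shRNA-NC and 6.83, 2.49 and 3.32 RPKM in shRNA-UBC9, a fall of 2.15 on the log2 scale (standard error 0.320, adjusted p = 0.00169 from limma). PLIN2, a lipid droplet protein, had 2.91, 3.60 and 3.03 RPKM in shRNA-NC and 30.1, 9.84 and 5.69 RPKM in shRNA-UBC9 (log2 fold change 1.88, adjusted p = 0.0197 from limma). These were the only called genes of 11 tested, where 7.89% of all tested genes were called, and the median of the list was 0.42. In 5 of the 11, CPT1A, SLC25A20, PPARA and ACADVL among them, every knockdown sample lay above the controls. In 1, PPARG, every knockdown sample lay below. Over all tested genes the shares were 25.7% above and 25.4% below. Without shRNA-NC replicate 1 or 3 PLIN2 was no longer called (adjusted p = 0.0648 and 0.0599, limma), and without shRNA-UBC9 replicate 1 its log2 fold change was 1.22. FABP4 had 6.24, 3.99 and 7.81 RPKM in shRNA-NC and 3.56, 14.8 and 14.3 RPKM in shRNA-UBC9, with overlap. Its log2 fold change was 0.64, and without shRNA-UBC9 replicate 1 it was 1.31 and FABP4 was called higher. Replicate 1 of shRNA-UBC9 was thus the lowest of all samples for FABP4 and the highest for PLIN2. Of 13 genes of the ATF4 stress response, ATF4 itself and 12 targets, 4 rose and 1 fell, beside 5.2% and 2.7% of all tested genes, with a median of 0.71. Without shRNA-UBC9 replicate 1 the median was 0.41. CEBPB, a transcription factor of the acute phase, rose by 2.19 (adjusted p = 3.1e-05), SESN2 by 1.46 (adjusted p = 0.00124), PPP1R15A by 1.34 (adjusted p = 4.2e-05) and DDIT3 by 1.19 (adjusted p = 0.00294), while the serine synthesis gene PHGDH had a log2 fold change of -1.07 (adjusted p = 0.0292, all from limma). The log2 excess of replicate 1 over the mean of replicates 2 and 3 was -0.01 for CEBPB, 0.32 for SESN2, 0.08 for PPP1R15A and -0.04 for DDIT3. Over the 13 genes this excess ran from -0.70 for ASNS to 1.21 for VLDLR, with a median of -0.04. Among the members it was 0.52 for STC2 and 1.61 for VEGFA. VLDLR was also in the list of hypoxia response genes. The part of the PPAR and ATF4 genes in the levels of the members was not tested. ATF4 itself had 134, 107 and 130 RPKM in shRNA-NC and 106, 124 and 111 RPKM in shRNA-UBC9. Without shRNA-UBC9 replicate 2 the list had 3 higher and none lower, DDIT3 being lost at a log2 difference of 0.99. PHGDH lost its call without shRNA-NC replicate 1 or 3 or shRNA-UBC9 replicate 1 or 2, with adjusted p between 0.0561 and 0.0995.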

How the data were processed

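RNA-seq of 3 shRNA-NC and 3 shRNA-UBC9 samples of T24 cells was analysed, grouped by the sample labels. Reads were trimmed by the authors and aligned to GRCh38 (hg38) in CLC Biomedical Genomics Workbench 4 at default parameters, and RPKM values for each gene were deposited. The annotation release, the treatment of multiply mapped reads and filters are not given in the sources used here. The members and gene lists were chosen with earlier results of these data known, and lists were written by hand.

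Values were taken to log2(RPKM + 0.1). A gene was tested if 3 or more of its samples reached 0.5 RPKM. The difference between groups was fitted by limma 3.58.1 (R 4.3.3, intensity trend, Benjamini-Hochberg adjustment over all tested genes). Calls required an adjusted p-value below 0.05 together with |log2 fold change| > 1. An exact permutation test of 3 against 3 samples cannot give a p below 0.1. Relative depth was read from the common ratio of low values between samples, and read numbers are the smallest whole numbers (within 0.001) that fit all 6 samples, so true numbers may be a multiple. Named genes were every member, all vascular receptors, the called genes of each list (at most 6 in each direction) and the 5 genes most correlated with STC1, ESM1 and ANGPTL4. The level of the targeted gene is not reported here. Other genes were named after their values were seen. Of 157 list symbols 157 matched, 2 by older names. The limma script was tested on simulated data. Gene positions came from GENCODE release 44. Alternatives were other pseudocounts, filters and scalings, no trend, a replicate block, each sample left out, and unadjusted p-values. Python 3.11.15, numpy 2.4.6, pandas 2.3.3, scipy 1.17.1 and matplotlib 3.10.9 were used.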

Additional observations from a re-analysis of the deposited data

How the results depend on the processing

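Among the tested members, the neuropilins and the called genes of the factor, inhibitor, hypoxia, PPAR and ATF4 lists, no log2 fold change past the threshold reversed under the alternatives in which the gene was tested. With a pseudocount of 1 the number of genes called fell from 981 to 552 (391 higher and 161 lower), and with an RPKM of at least 1 required in all samples it was also 552 (342 higher and 210 lower), against 646 higher and 335 lower. The latter filter left 6 members, of which 2 were called, since STC1 and ANGPTL4 are below it in shRNA-NC, and it left 2 other secreted angiogenic factors called. Testing every gene above 0 left 1 PPAR gene called, and 3 members, without VEGFA. With each sample left out, the count of all called genes ranged from 926 to 1065, of members from 3 to 4, of vascular receptors from 0 to 1, of hypoxia response genes from 3 to 7, of PPAR genes from 1 to 3 and of ATF4 stress genes from 3 to 5. The other list counts stayed within 1.5 times of the reported ones. The replicate numbers did not pair the samples (correlation of deviations -0.37, 0.07 and -0.17 for numbers 1, 2 and 3). The largest correlation between a control and a knockdown sample was 0.53, for shRNA-NC replicate 1 and shRNA-UBC9 replicate 3. With the replicate block 974 genes were called, and the same 4 members. Depth limits KDR, TEK and FLT4, whose values rest on few reads, and values near 0 depend on the pseudocount.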
